A study of Oryza sativa with 5 samples.

Results

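The distal parts of rice chromosomes 8 and 9 are arms that share an ancient duplication, and they are compared here for H3K4me3 and H3K27me3. The members were all peaks of the 4 deposited peak lists with a midpoint from 14.2 to 27.4 Mb on chromosome 8 or from 11.5 to 21.9 Mb on chromosome 9. Membership rested on position alone, but the arms themselves were chosen with earlier results of these data known. The members numbered 7381 of 96576 peaks, of which 3617 lay on the chromosome 8 arm and 3764 on the chromosome 9 arm. The arms measure 13.2 and 10.4 Mb and together hold 6.33% of the length spanned by the lists. The cells were male meiocytes (pollen mother cells) of Oryza sativa at early prophase I, and the labels give no cultivar, genotype or treatment. Small numbers of cross-linked cells were digested with micrococcal nuclease and sonicated, and chromatin was precipitated with an antibody to H3K4me3 or to H3K27me3. Each mark had 2 libraries, described in the labels as biological replicates, and 1 input library was not analysed here. The lists carry neither expression values nor gene names, so the labelled cell type could not be checked against markers, and no gene or sequence is shown because the sources used here do not name the genome build.

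Trimethylation of lysine 4 of histone H3 (H3K4me3) sits on the nucleosomes at the starts of genes that are transcribed or ready to be, and forms short peaks. Trimethylation of lysine 27 (H3K27me3) is set by Polycomb repressive complex 2 and in plants often spans whole genes that are kept silent in a given cell type. The ancestor of the grasses went through a doubling of its whole genome, after which most duplicated genes lost one copy. Paired segments such as these arms keep only part of their genes in common order. In rice the outer parts of chromosome arms are rich in genes, and the parts near centromeres are rich in transposable elements.

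Read depth is unknown, and every value describes peaks as the authors' caller gave them. The smallest −log10 q was 2.01 in both H3K4me3 lists but 1.02 and 1.01 in the H3K27me3 lists, and the tags within peak names differ from library to library ("subsample" in 1, "merge" in another). Values of the 2 marks, or of 2 libraries, were therefore not set against each other as amounts. The arms were compared within each library, where depth and threshold are shared.

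Both arms held almost the same number of peaks, so the shorter chromosome 9 arm was the more densely marked for both marks. The chromosome 8 arm held 1057 and 990 H3K4me3 peaks in replicates 1 and 2 and 794 and 776 H3K27me3 peaks. The chromosome 9 arm held 1111 and 1046 H3K4me3 peaks and 800 and 807 H3K27me3 peaks. All 4 libraries placed more peaks on the shorter arm.

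H3K4me3 density was 80.1 and 75.0 peaks per Mb in replicates 1 and 2 on the chromosome 8 arm, against 106.8 and 100.6 on the chromosome 9 arm. H3K27me3 density was 60.2 and 58.8 peaks per Mb on the chromosome 8 arm, against 76.9 and 77.6 on the chromosome 9 arm. Both libraries of each mark were higher on the chromosome 9 arm, and the arms did not overlap. The log2 ratio of the chromosome 9 arm over the chromosome 8 arm was 0.42 ± 0.0053 for H3K4me3 and 0.38 ± 0.032 for H3K27me3 (mean ± SD, n = 2 libraries per mark). Both ratios exceeded the spread between libraries, while the exact sign-flip permutation p was 0.5 for each (two-sided), the smallest that 2 libraries allow.

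The share of bases in peaks followed the density. H3K4me3 peaks covered 5.20% and 3.64% of the chromosome 8 arm in replicates 1 and 2 and 7.21% and 5.01% of the chromosome 9 arm. H3K27me3 peaks covered 7.59% and 6.13% of the chromosome 8 arm and 10.4% and 8.28% of the chromosome 9 arm. Within each library the chromosome 9 arm had the larger share. The log2 ratio was 0.47 ± 0.0098 for H3K4me3, a mean fold of 1.38, and 0.44 ± 0.013 for H3K27me3, a mean fold of 1.36 (mean ± SD, n = 2, exact sign-flip permutation p = 0.5 for each).

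The 2 marks differed little in how far they separated the arms. The coverage log2 ratio of the arms for H3K27me3 minus that for H3K4me3 was -0.02, with an exact permutation p of 0.333 (two-sided) for 2 libraries against 2, which is the smallest this design allows. For density this difference was -0.04 (exact permutation p = 0.333).

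Peak width separated the arms far less than number did. Median H3K4me3 width was 582 and 429 bp in replicates 1 and 2 on the chromosome 8 arm and 614 and 439.5 bp on the chromosome 9 arm. Median H3K27me3 width was 678.5 and 600.5 bp on the chromosome 8 arm and 738.5 and 599 bp on the chromosome 9 arm. The H3K4me3 medians were slightly larger on the chromosome 9 arm in both libraries, whereas the H3K27me3 libraries went opposite ways. The log2 ratio of medians was 0.056 ± 0.030 for H3K4me3 (exact sign-flip permutation p = 0.5) and 0.059 ± 0.089 for H3K27me3 (p = 1), the latter within the spread between libraries. With weaker peaks dropped, keeping a −log10 q of 5 or more, the H3K27me3 ratio was -0.11.

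**Figure D1:**
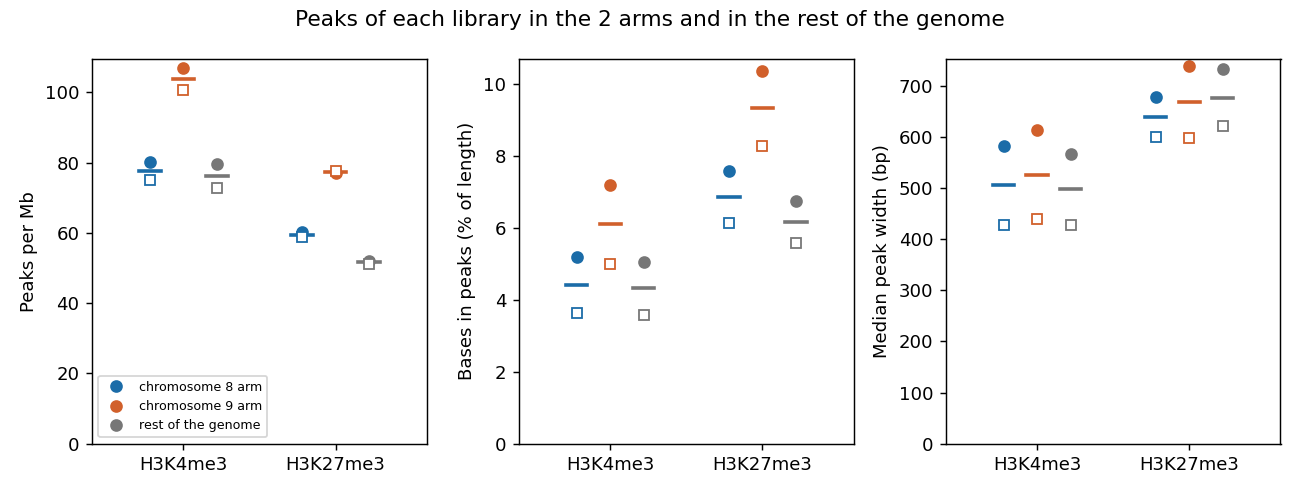
Peaks per Mb (left), percent of bases in peaks (middle) and median peak width in bp (right) on the chromosome 8 arm (blue), on the chromosome 9 arm (orange) and in the rest of the genome (grey). Filled circles are replicate 1, open squares replicate 2 and bars their mean; the chromosome 9 arm is above the chromosome 8 arm in density and coverage in every library (H3K27me3 coverage of 10.4% and 8.28% against 7.59% and 6.13%), while the widths lie close together.

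Part of the gap between the arms lay in the innermost 2.8 Mb of the chromosome 8 arm, which has no counterpart in length on chromosome 9. There, H3K4me3 peaks covered 2.79% and 1.84% of the bases in replicates 1 and 2, and H3K27me3 peaks 3.35% and 2.52%. These shares were below those of the whole chromosome 8 arm in all 4 libraries. In the outer 10.4 Mb of the chromosome 8 arm, which is as long as the chromosome 9 arm, H3K4me3 covered 5.84% and 4.13% and H3K27me3 8.73% and 7.10%. With arms of equal length the log2 coverage ratio was 0.29 ± 0.018 for H3K4me3 and 0.24 ± 0.020 for H3K27me3 (mean ± SD, n = 2), so the chromosome 9 arm stayed higher in every library by less than over the whole arms.

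Both arms stood above the rest of the genome in both marks and all 4 libraries, the chromosome 9 arm by more. Elsewhere, H3K4me3 peaks covered 5.07% and 3.59% of the bases in replicates 1 and 2 and H3K27me3 peaks 6.75% and 5.59%. The chromosome 8 arm differed from this by a log2 ratio of 0.03 ± 0.012 for H3K4me3 and 0.15 ± 0.025 for H3K27me3. The chromosome 9 arm differed by 0.49 ± 0.022 and 0.59 ± 0.038 (mean ± SD, n = 2 libraries, exact sign-flip permutation p = 0.5 for each ratio in this paragraph). The outer 10.4 Mb of the chromosome 8 arm stood above the rest by 0.20 ± 0.0038 and 0.36 ± 0.018. H3K27me3 on the whole chromosome 8 arm came as more peaks (a log2 density ratio of 0.20 ± 0.0057) with smaller median widths than elsewhere (-0.08 ± 0.046).

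Each arm also stood above the part of its own chromosome before its inner limit, by very different factors. That part runs from the opposite chromosome end to the arm, so it includes an outer part of the chromosome as well. On chromosome 8 these first 14.2 Mb had H3K4me3 coverage of 3.63% and 2.56% and H3K27me3 coverage of 6.55% and 5.65% in replicates 1 and 2. On chromosome 9 the first 11.5 Mb had 2.21% and 1.58% for H3K4me3 and 3.78% and 3.32% for H3K27me3. The arm of chromosome 8 was thus higher by a mean fold of 1.43 for H3K4me3 and 1.12 for H3K27me3, and that of chromosome 9 by 3.21 and 2.62.

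The limits of the arms did not fall at equal places in the profile. At the inner limit on chromosome 8, H3K27me3 replicate 1 covered 3.94% of the 500 kb just inside and 0.564% of the 500 kb just outside, and H3K4me3 replicate 1 covered 3.79% and 2.57%. At the inner limit on chromosome 9, H3K4me3 replicate 1 covered 3.77% inside and 0.798% outside, and H3K27me3 replicate 1 covered 2.05% and 3.20%. So coverage inside exceeded that outside for both marks on chromosome 8 and for H3K4me3 alone on chromosome 9. At the outer limits the bases beyond were marked as well, with H3K27me3 replicate 1 at 15.2% outside against 10.5% inside on chromosome 8 and at 10.3% against 10.8% on chromosome 9.

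In steps of 500 kb, counted outward from each inner limit, coverage varied more along an arm than between the arms. Over the 26 full steps of the chromosome 8 arm, H3K4me3 coverage in replicate 1 ran from 0.867% to 10.0% with a median of 5.22%, and in replicate 2 from 0.635% to 6.87% with a median of 3.60%. Over the 20 full steps of the chromosome 9 arm it ran from 2.64% to 10.4% with a median of 6.56%, and from 1.94% to 7.40% with a median of 4.99%. The highest steps were alike, and the sparsest steps belonged to chromosome 8.

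H3K27me3 coverage of the steps on the chromosome 8 arm ran from 0.566% to 18.7% with a median of 6.96% in replicate 1, and from 0.325% to 14.6% with a median of 5.48% in replicate 2. On the chromosome 9 arm it ran from 2.05% to 26.9% with a median of 10.1%, and from 1.37% to 20.3% with a median of 7.62%. Here the chromosome 9 arm had the higher values at both ends of the range in both libraries. Of all 740 steps of this size in the genome, 78.0% lay below the median step of the chromosome 9 arm for H3K27me3 replicate 1, and 59.3% below that of the chromosome 8 arm. For H3K4me3 replicate 1 the shares were 65.8% and 52.7%.

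Peak density by step gave the same order of the arms for the median and the sparsest step of H3K4me3. In replicate 1 it ran from 20 to 152 peaks per Mb with a median of 76 on the chromosome 8 arm, and from 38 to 152 with a median of 100 on the chromosome 9 arm. In that library the densest step was equal on the arms, and the median and the sparsest step were lower on chromosome 8. In replicate 2, density ran from 14 to 138 with a median of 71 on the chromosome 8 arm. On the chromosome 9 arm it ran from 30 to 156 with a median of 101, so there the densest step was higher as well. For H3K27me3 replicate 1, density ran from 10 to 134 peaks per Mb with a median of 58 on the chromosome 8 arm and from 20 to 154 with a median of 70 on the chromosome 9 arm.

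The replicates gave the same profile along each arm. Across the 26 steps of the chromosome 8 arm, Pearson's r between replicates was 0.99 for H3K4me3 coverage and 0.98 for H3K27me3 coverage, and across the 20 steps of the chromosome 9 arm 0.96 and 0.98. These correlations describe neighbouring steps that share a library, its depth and the local sequence, so no p-value is given. The marks did not track each other closely. Between H3K4me3 and H3K27me3 regions, which are the bases covered in both replicates of a mark, r was 0.27 (Spearman's rho 0.38) across the steps of the chromosome 8 arm and -0.18 (rho -0.15) across those of the chromosome 9 arm.

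The extreme steps of the 2 marks lay in different places. On the chromosome 8 arm, the step with the highest mean H3K4me3 coverage of the 2 libraries began at 24.2 Mb, with 10.0% and 6.84% in replicates 1 and 2, and had H3K27me3 coverage of 3.72% and 2.34%. The step with the highest mean H3K27me3 coverage began at 20.7 Mb, with 18.7% and 13.5%, and had H3K4me3 coverage of 4.89% and 3.72%. In replicate 2 alone the highest steps began at 25.7 Mb for H3K4me3, with 6.87%, and at 26.7 Mb for H3K27me3, with 14.6%. Neither peak step of one mark was a peak step of the other. The lowest steps of this arm began at 15.7 Mb for H3K4me3, with 0.867% and 0.635%, and at 17.7 Mb for H3K27me3, with 0.566% and 0.325%.

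On the chromosome 9 arm, the highest H3K27me3 step began at 15.5 Mb and reached 26.9% and 20.3% in replicates 1 and 2. Its H3K4me3 coverage of 6.36% and 3.81% lay below the median step of the arm. The highest H3K4me3 step began at 19.0 Mb, with 10.4% and 7.40%, and the lowest at 13.0 Mb, with 2.64% and 1.94%. H3K27me3 was lowest in the innermost step, which began at 11.5 Mb, with 2.05% and 1.37%. The next step outward already reached 19.0% and 16.1%, above every full step of the chromosome 8 arm in both libraries.

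**Figure D2:**
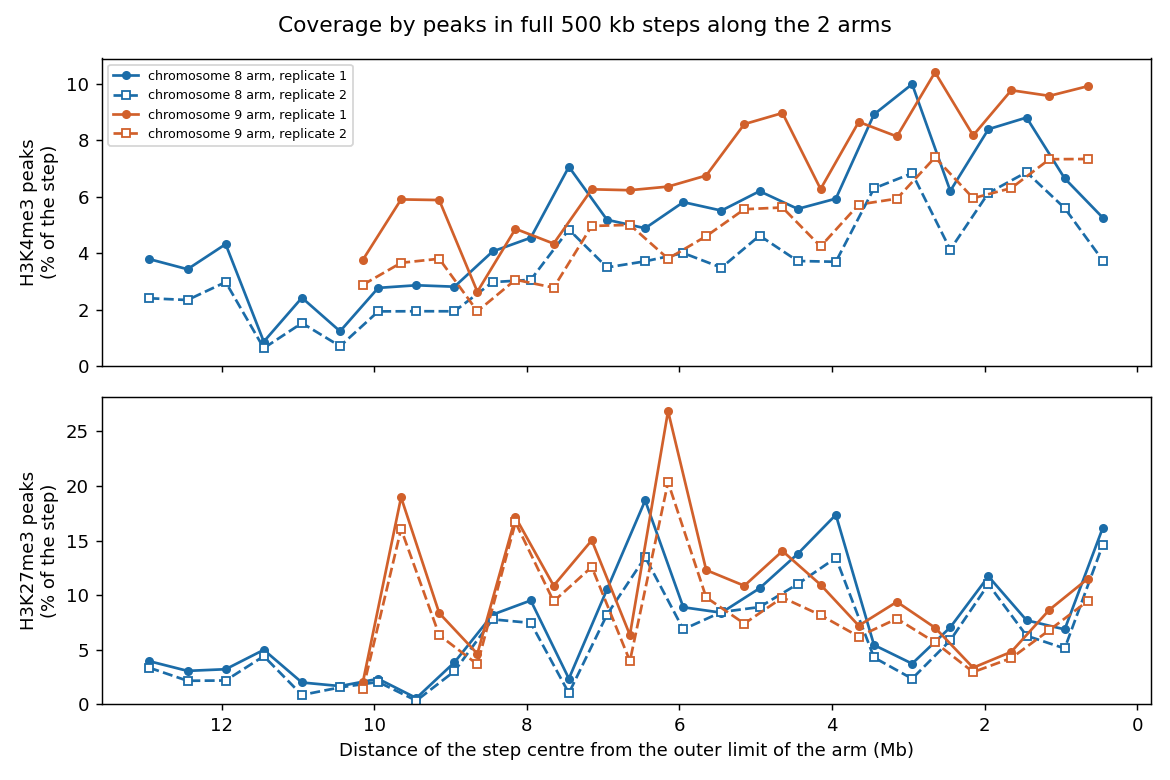
Percent of each full 500 kb step covered by H3K4me3 peaks (top) and H3K27me3 peaks (bottom) against the distance of the step centre from the outer limit of the arm in Mb, outer limits at the right. Blue is the chromosome 8 arm and orange the chromosome 9 arm, with filled circles and solid lines for replicate 1 and open squares and dashed lines for replicate 2; H3K4me3 is higher toward the outer limit on both arms, whereas H3K27me3 is sparse in the innermost steps of the chromosome 8 arm, with a highest step of 26.9% in the middle of the chromosome 9 arm.

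H3K4me3 was higher toward the chromosome end on both arms, and H3K27me3 had opposite directions on them. Each arm was cut into an inner, a middle and an outer segment of equal length, 4.4 Mb each on chromosome 8 and 3.47 Mb each on chromosome 9. On the chromosome 8 arm, H3K4me3 coverage of the inner, middle and outer segment was 2.76, 5.31 and 7.52% in replicate 1 and 1.84, 3.70 and 5.39% in replicate 2. On the chromosome 9 arm it was 4.78, 7.33 and 9.52% in replicate 1 and 3.28, 4.86 and 6.88% in replicate 2. Each segment exceeded the one inside it in both libraries and on both arms.

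H3K27me3 coverage of the inner, middle and outer segment of the chromosome 8 arm was 2.86, 9.77 and 10.1% in replicate 1 and 2.20, 7.90 and 8.28% in replicate 2. On the chromosome 9 arm it was 11.0, 12.8 and 7.31% in replicate 1 and 9.41, 9.55 and 5.87% in replicate 2. The sparse segment was thus the inner one on chromosome 8 and the outer one on chromosome 9, in both libraries. Outer over inner, the mean log2 ratio was 1.87 on the chromosome 8 arm and -0.63 on the chromosome 9 arm for H3K27me3, against 1.50 and 1.03 for H3K4me3 (n = 2 libraries each). The difference between the arms in this ratio was not tested. In the outer 10.4 Mb of the chromosome 8 arm alone the ratio was 0.95 for H3K27me3 and 1.00 for H3K4me3, so the direction held there while the size was smaller.

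Peak number differed among the segments more than peak width. H3K27me3 density in replicate 1 was 30.9, 72.7 and 76.8 peaks per Mb from the inner to the outer segment of the chromosome 8 arm and 75.0, 98.7 and 57.1 on the chromosome 9 arm. The median H3K27me3 width in that library was 575.5, 674.5 and 742.5 bp on chromosome 8 and 713, 722 and 814 bp on chromosome 9. The outer segment of the chromosome 9 arm therefore had the fewest H3K27me3 peaks of that arm and the widest median. In replicate 2 its median of 597 bp lay between the 542 and 692 bp of the other segments, so the libraries did not give the same order of widths.

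When the arms were lined up at their outer limits, H3K4me3 followed a similar course on both and H3K27me3 did not. This alignment used position alone, not duplicated genes. Over the 20 pairs of steps, H3K4me3 coverage of the arms had an r of 0.60 and 0.64 in replicates 1 and 2, and H3K27me3 coverage an r of 0.18 and 0.01, given as a description only. In the 10 outer pairs the mean H3K27me3 coverage was 10.5% and 8.60% on chromosome 8 and 8.33% and 6.50% on chromosome 9. In the 10 inner pairs it was 7.60% and 6.10% on chromosome 8 and 13.1% and 10.6% on chromosome 9. The surplus of H3K27me3 on the chromosome 9 arm therefore lay in its inner steps in both libraries, while the mean of the outer steps was lower there than on chromosome 8. Pair by pair, the chromosome 9 step had the higher H3K27me3 coverage in 12 of 20 pairs in replicate 1 and 13 of 20 in replicate 2, and in 5 of the 10 outer pairs in both libraries.

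For H3K4me3 the chromosome 9 arm was higher in both sets of pairs. The mean over the 10 outer pairs was 7.31% and 5.24% on chromosome 8 and 9.01% and 6.34% on chromosome 9 in replicates 1 and 2. Over the 10 inner pairs it was 4.78% and 3.29% on chromosome 8 and 5.79% and 3.92% on chromosome 9. In 15 of 20 pairs in replicate 1 and 13 of 20 in replicate 2 the chromosome 9 step had the higher H3K4me3 coverage.

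The H3K27me3 regions of the arms had nearly the same make-up by length, apart from a few very long ones on chromosome 9. The chromosome 8 arm held 647 regions with a median of 598 bp, and the chromosome 9 arm 666 with a median of 594.5 bp. Regions under 500 bp were 41.7% (95% Wilson interval 38.0 to 45.6%) of the regions on chromosome 8 and 42.0% (38.3 to 45.8%) on chromosome 9. Regions of 5 kb and over numbered 15 of 647, or 2.32% (1.41 to 3.79%), and 16 of 666, or 2.40% (1.48 to 3.87%). Of all regions of the genome, 42.1% were under 500 bp and 2.27% were 5 kb or longer. The intervals of the arms overlap widely and hold these genome values. They cover counting error only, and neighbouring regions are not independent.

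By bases, regions of 5 kb and over held 14.7% of the H3K27me3 of the chromosome 8 arm and 20.4% of that of the chromosome 9 arm, against 16.1% over the genome. The arms were closer in single libraries, with 23.3% against 24.7% in replicate 1 and 15.3% against 18.5% in replicate 2. The genome values of these were 23.5% and 16.1%. When regions at most 1000 bp apart were joined, the share was 50.5% on chromosome 8 and 48.0% on chromosome 9, so the order of the arms turned. With a −log10 q of 5 or more required, the chromosome 9 arm exceeded the chromosome 8 arm by 15.4 percentage points. Regions of 2 to 5 kb held 31.1% of the bases on chromosome 8 and 26.0% on chromosome 9, against 30.5% over the genome.

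**Figure D3:**
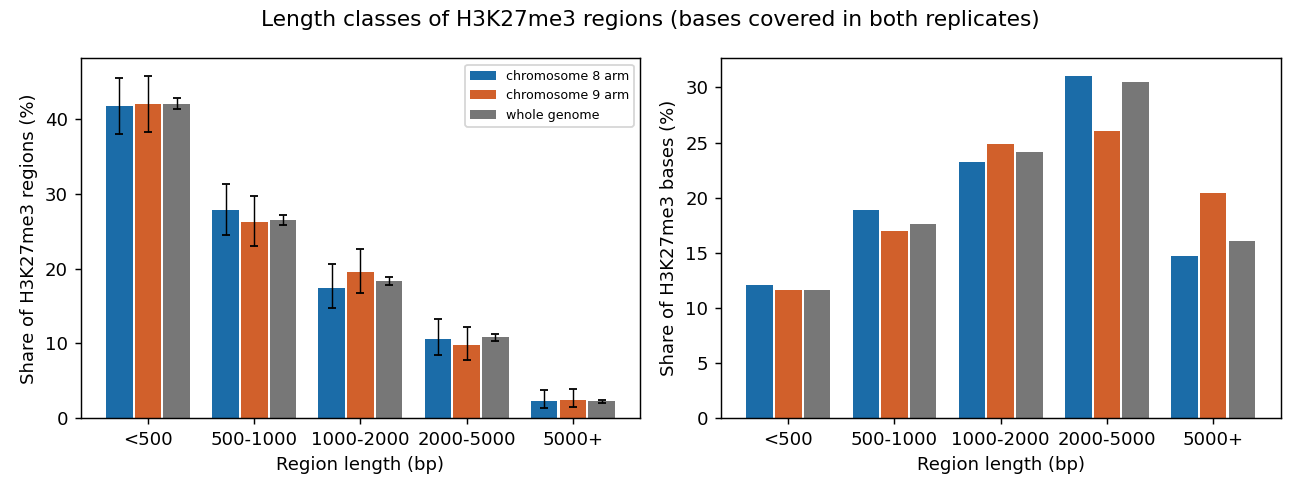
Share of H3K27me3 regions (left, in percent, error bars 95% Wilson intervals) and share of H3K27me3 bases (right, in percent, no error) by region length in bp for the chromosome 8 arm (blue), the chromosome 9 arm (orange) and the whole genome (grey). The shares of regions on each arm lie within the intervals of the other arm, and the bases in regions of 5 kb and over come to 14.7% on the chromosome 8 arm and 20.4% on the chromosome 9 arm.

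The 4 longest regions of the chromosome 9 arm were each longer than any on the chromosome 8 arm. The longest ran from 15808093 to 15837129 on chromosome 9, over 29037 bp, within a replicate 1 peak of 40853 bp and its peaks stood in percentiles 99.5 and 99.0 by fold enrichment in replicates 1 and 2. The next ran from 13921280 to 13939585 (18306 bp), from 14561177 to 14576156 (14980 bp) and from 13940077 to 13953329 (13253 bp). The second and the fourth of these lie within 1000 bp of each other, and all 4 lie in the inner and middle segments. The fifth was shorter, from 12103800 to 12112681 (8882 bp).

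The longest region of the chromosome 8 arm ran from 24904583 to 24914365 (9783 bp). Another, from 24895514 to 24904147 (8634 bp), lay beside it, and both fell within 1 replicate 1 peak of 19229 bp, which replicate 2 gave as separate peaks. The others ran from 25235936 to 25245171 (9236 bp), from 21104201 to 21111759 (7559 bp) and from 25354576 to 25361756 (7181 bp). Of these 5 regions, 4 lie in the outer segment. With regions at most 1000 bp apart joined, the longest stretch of this arm was 19306 bp, from 26830934 to 26850239, and that of the chromosome 9 arm 40696 bp, from 15802145 to 15842840.

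From inner to outer, the segments of the chromosome 8 arm held 0, 9 and 6 regions of 5 kb and over, and those of the chromosome 9 arm 7, 5 and 4. The innermost segment thus held none on chromosome 8 and the most on chromosome 9, although the segment with the most long regions was not the one with the highest coverage on either arm. By the authors' fold enrichment, the 10 named long regions of both arms lay between percentiles 87.2 and 99.7 of their lists.

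Windows dense in H3K27me3, defined as 100 kb windows with at least 10% of their bases in H3K27me3 regions, made up 14.8% of all windows of the genome. On the chromosome 8 arm 23 of 132 windows were dense, or 17.4% (95% Wilson interval 11.9 to 24.8%), and on the chromosome 9 arm 23 of 104, or 22.1% (15.2 to 31.0%). The arms held the same number of dense windows, and the intervals of their shares overlapped. The interval of the chromosome 8 arm holds the value of the genome, and that of the chromosome 9 arm begins just above it. In single libraries the shares were 28.8% and 37.5% in replicate 1, and 20.5% and 30.8% in replicate 2, for the chromosome 8 and the chromosome 9 arm. The matching shares of the genome were 23.9% and 19.0% in replicates 1 and 2. They lay within the intervals of the chromosome 8 arm (21.8 to 37.0% and 14.5 to 28.1%). Those of the chromosome 9 arm began above them (28.8 to 47.1% and 22.7 to 40.2%). Both libraries had the larger share on chromosome 9. The difference of 4.69 percentage points was 0.334 with windows shifted by 50 kb and 0.117 when a −log10 q of 5 or more was required.

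The arms differed more in windows without H3K27me3 regions. No such region lay in 30 of 132 windows of the chromosome 8 arm and in 10 of 104 of the chromosome 9 arm. Windows without any bases in H3K27me3 peaks numbered 18 and 6 in replicate 1, and 23 and 7 in replicate 2. The share of such windows over the genome is not given. The chromosome 8 counts include windows of its sparse innermost 2.8 Mb, and no count at equal length is given. The dense windows formed 17 separate stretches on chromosome 8, of which 11 were single windows and 6 pairs. On chromosome 9 they formed 16 stretches, with 12 single windows, 1 pair and 3 stretches of 3 windows. The dense stretches of chromosome 9 were therefore less even in length, with the same total of 2300 kb.

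The 3 stretches of 3 windows lay at 13.9 to 14.2 Mb, 15.6 to 15.9 Mb and 17.1 to 17.4 Mb on chromosome 9. H3K27me3 regions covered 29.3%, 29.3% and 13.6% of them, in 39, 47 and 41 regions. The first held 4 regions of 5 kb and over, the second 3 and the third none, so similar spans were reached with long regions in some and with many shorter ones in the other. The highest window of the chromosome 9 arm had 55.0% of its bases in H3K27me3 regions and that of the chromosome 8 arm 37.3%. The dense stretch with the highest coverage on chromosome 8, at 26.7 to 26.9 Mb, reached 27.9% with 43 regions, of which 1 was 5 kb or longer.

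H3K4me3 was not missing from dense windows. Its regions covered a median of 3.05% of the 23 dense windows of the chromosome 8 arm, with a range of 0.852 to 8.25%. In the 79 windows with H3K27me3 regions below the threshold the median was 3.44%, and in the 30 windows with no such region 2.22%. On the chromosome 9 arm the medians were 3.23, 4.84 and 4.89% in 23 dense windows, 71 windows between and 10 windows with none. H3K4me3 was lowest in the windows without H3K27me3 regions on chromosome 8 and in the dense windows on chromosome 9, and the ranges of all these classes overlapped.

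**Figure D4:**
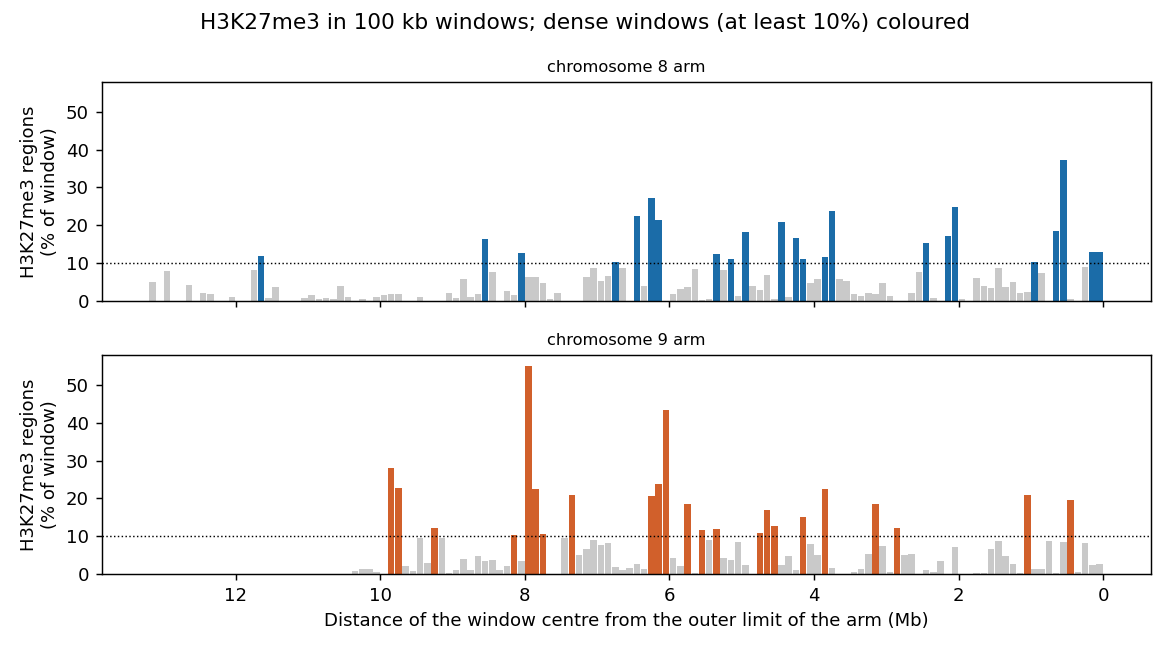
Percent of each 100 kb window covered by H3K27me3 regions against the distance of the window centre from the outer limit of the arm in Mb, for the chromosome 8 arm (top) and the chromosome 9 arm (bottom). Windows at or above the dotted line at 10% are coloured and the others grey; each arm has 23 dense windows, spread over the outer parts on chromosome 8 and placed further inward on chromosome 9, where the highest window reaches 55.0%.

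Long gaps between H3K4me3 regions were commoner on the chromosome 8 arm than on the chromosome 9 arm. Neighbouring H3K4me3 regions were a median of 6949 bp apart on chromosome 8 and 6146 bp on chromosome 9. Gaps of 50 kb or more numbered 45 of 937 on chromosome 8 and 11 of 983 on chromosome 9. The share over the genome is not given, so which arm is unusual cannot be told. The chromosome 8 count includes the innermost 2.8 Mb, with 38.9 H3K4me3 regions per Mb against 79.7 in the outer 10.4 Mb. No count at equal length is given. The longest gap, from 16015740 to 16308505 on chromosome 8, spanned 292766 bp, with no H3K4me3 peak in either library and 2 H3K27me3 peaks in each. The longest on chromosome 9, from 13254016 to 13435179, spanned 181164 bp and held 3 H3K4me3 peaks of replicate 1, none of replicate 2, and 3 H3K27me3 regions covering 6998 bp. The lists do not say whether such gaps hold sequence in which reads could not be placed.

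Close spacing of regions was similar on the 2 arms for each mark. The gap to the next region was under 1 kb for 40.1% of H3K27me3 regions on chromosome 8 and 42.1% on chromosome 9. For H3K4me3 regions the shares were 15.0% and 16.3%. The shares over the genome are not given, so whether this spacing is particular to the arms cannot be told. The marks are not compared in this, because their lists differ in format and threshold. A long peak of 1 replicate that the other gave as separate peaks also yields close regions. The longest gap between H3K27me3 regions was 465424 bp on chromosome 8, from 19814974 to 20280397, where 40 H3K4me3 regions lay. On chromosome 9 it was 311630 bp, from 18146140 to 18457769, with 38 H3K4me3 regions.

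The widest H3K4me3 regions were of like size on both arms. On chromosome 8 they ran from 21722318 to 21724281 (1964 bp), from 20195842 to 20197476 (1635 bp) and from 15643341 to 15644937 (1597 bp). On chromosome 9 they ran from 19333084 to 19335066 (1983 bp), from 15533539 to 15535477 (1939 bp) and from 19330083 to 19331817 (1735 bp). The first and the third of chromosome 9 lie within 5 kb of each other. None of the 6 overlapped an H3K27me3 region, although 2 of them, the third on chromosome 8 and the second on chromosome 9, touched an H3K27me3 peak of replicate 1 alone.

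The marks overlapped to a similar degree on both arms. Peaks of both marks at one place in a population of cells do not show that both sit on the same copy of a chromosome. Over the genome 13.9% of H3K4me3 regions touched an H3K27me3 region by at least 1 bp. Of those on the chromosome 8 arm 141 of 938 did, or 15.0% (95% Wilson interval 12.9 to 17.5%), and on the chromosome 9 arm 142 of 984, or 14.4% (12.4 to 16.8%). Both intervals hold the value of the genome. In the other direction, 19.5% of H3K27me3 regions of the genome touched an H3K4me3 region, and 122 of 647 on chromosome 8, or 18.9% (16.0 to 22.1%), and 122 of 666 on chromosome 9, or 18.3% (15.6 to 21.4%). These shares too were near that of the genome.

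The overlap depended more on the H3K27me3 library than on the arm. With replicate 1 of both marks, 27.2% of H3K4me3 peaks touched H3K27me3 on chromosome 8 and 25.9% on chromosome 9. With H3K27me3 replicate 2 instead, the shares were 16.1% and 16.6%. With replicate 2 of both marks they were 16.4% and 15.9%. H3K4me3 replicate 2 with H3K27me3 replicate 1 gave 26.1% and 23.1%, the widest gap between the arms. Over the genome, H3K27me3 replicate 1 gave 24.7% with H3K4me3 replicate 1 and 23.3% with H3K4me3 replicate 2. H3K27me3 replicate 2 gave 15.1% and 15.2%. For H3K4me3 replicate 2 with H3K27me3 replicate 1, the Wilson interval of chromosome 8 (23.4 to 28.9%) lay above the genome value. All other such intervals of the arms held the matching genome value. For either H3K4me3 library the arms differed by less than the H3K27me3 libraries did.

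By bases, 7.23% of H3K27me3 on the chromosome 8 arm and 7.05% on the chromosome 9 arm lay in H3K4me3 regions. The H3K4me3 coverage of the 500 kb steps in which this H3K27me3 lay came to 3.69% and 4.34%. The observed share was thus 1.96 times the local coverage on chromosome 8, 1.62 times on chromosome 9 and 1.98 times over the genome. For the outer 10.4 Mb of the chromosome 8 arm the ratio was 1.69, so the 2 arms came closer at equal length. The ratio to local coverage is a description, and whether it differs from what position would give was not tested.

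Short H3K27me3 regions had a larger share of their bases in H3K4me3 than long ones, on the arms as over the genome. In regions of 500 to 1000 bp, 14.0% of the bases on chromosome 8 and 14.3% on chromosome 9 lay in H3K4me3 regions, against 12.3% over the genome. Under 500 bp the shares were lower, at 9.44% and 10.5% against 9.56%. In regions of 5 kb and over the shares were 3.09% and 1.93%, below the H3K4me3 coverage of their steps of 3.91% and 3.85%. The genome values for these long regions were 3.65% and 4.10%. A long region is more likely to touch an H3K4me3 region at all, and 6 of 15 such regions on chromosome 8 and 6 of 16 on chromosome 9 did. Those shares were 40.0% (95% Wilson interval 19.8 to 64.3%) and 37.5% (18.5 to 61.4%), against 49.7% over the genome.

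**Figure D5:**
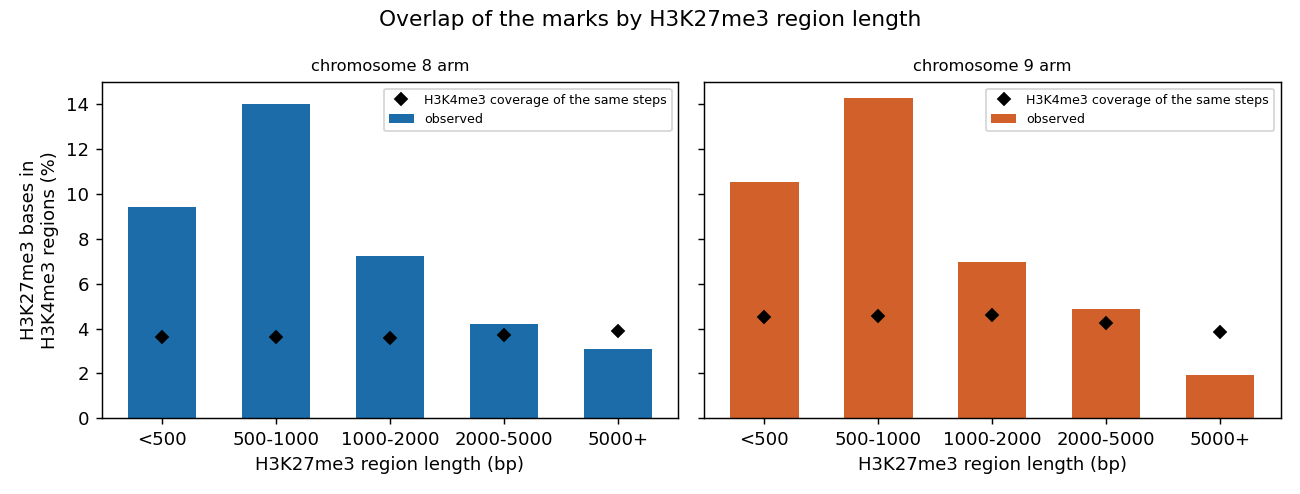
Percent of the H3K27me3 bases of each length class (in bp) that lie in H3K4me3 regions on the chromosome 8 arm (left, blue) and the chromosome 9 arm (right, orange), from regions covered in both replicates, without error bars. Diamonds give the H3K4me3 coverage of the same 500 kb steps; the bars stand highest at 500 to 1000 bp (14.0% and 14.3%) and lie below the diamonds at 5 kb and over (3.09% and 1.93%) on both arms.

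Stretches with both marks were short and numbered 141 on chromosome 8 and 142 on chromosome 9, or 10.7 and 13.7 per Mb, with medians of 306 and 293 bp. The whole genome had 9.65 per Mb, with a median of 316 bp. The 3 longest on chromosome 8 ran from 14488034 to 14489151 (1118 bp), from 20429941 to 20431054 (1114 bp) and from 16919083 to 16920008 (926 bp). On chromosome 9 they ran from 14961720 to 14962785 (1066 bp), from 16573978 to 16574854 (877 bp) and from 16565174 to 16566028 (855 bp). In each of these 6 stretches the H3K27me3 peak of replicate 1 stood higher in its list than that of replicate 2, for example at percentile 85.7 against 35.4 by fold enrichment for the first on chromosome 8.

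H3K4me3 peaks that touched H3K27me3 regions ranked lower in their lists than other peaks, on the arms as over the genome. In replicate 1 the median percentile of fold enrichment was 23.5 for the 165 touching peaks on chromosome 8 and 28.0 for the 178 on chromosome 9, against 55.6 and 56.5 for the other peaks of the arm. In replicate 2 it was 36.7 and 37.7, against 51.0 and 53.3. Over the genome the values were 23.8 against 55.9 in replicate 1 and 34.5 against 53.0 in replicate 2.

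Replicates shared peaks to a similar degree on the 2 arms. Of H3K4me3 replicate 1 peaks, 79.4% over the genome shared 1 bp or more with a replicate 2 peak, against 81.1% (95% Wilson interval 78.6 to 83.3%) on chromosome 8 and 80.0% (77.6 to 82.3%) on chromosome 9. Of replicate 2 peaks, 93.3% over the genome overlapped replicate 1, against 94.6% (93.1 to 95.9%) and 93.4% (91.7 to 94.8%). The intervals of the arms overlapped in both directions.

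Of H3K27me3 replicate 1 peaks, 67.2% over the genome overlapped a replicate 2 peak, against 66.6% (63.3 to 69.8%) on chromosome 8 and 65.9% (62.5 to 69.1%) on chromosome 9. Of replicate 2 peaks, 79.8% over the genome overlapped replicate 1, against 79.6% (76.7 to 82.3%) and 79.8% (76.9 to 82.4%). The value of the genome lay within the interval of each arm. With overlap of at least 50% of both peaks the chromosome 9 arm was lower than the chromosome 8 arm by a mean of -2.42 percentage points for H3K27me3, against -0.29 with any overlap. The length covered in both replicates, divided by the length covered in either, was 0.605 on chromosome 8 and 0.590 on chromosome 9 for H3K4me3. For H3K27me3 it was 0.595 and 0.597.

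Sharing by length and rank of H3K27me3 peaks was mostly close on the arms to that over the genome. In replicate 1, 42.9% (37.3 to 48.7%) of the peaks under 500 bp on chromosome 8 and 38.9% (33.4 to 44.8%) on chromosome 9 were found in replicate 2, against 41.3% over the genome. All 31 and 27 peaks of 5 kb and over were found there. Among peaks below percentile 25 by fold enrichment in the replicate 1 list, 31.8% on chromosome 8 and 28.9% on chromosome 9 were shared. Among the highest 25% of the list the shares were 98.3% (95.1 to 99.4%) and 92.2% (87.4 to 95.3%). Over the genome these shares were 32.3% and 93.5%, the latter below the interval of the chromosome 8 arm. In replicate 2 the rise with rank was not steady on chromosome 9, with 72.6% shared below percentile 25 and 70.2% in the next 25% of the list, as over the genome with 70.3% and 68.2%. By 500 kb step, the shared percentage of H3K27me3 replicate 1 ran from 21.4 to 88.1% on chromosome 8 and from 52.5 to 78.3% on chromosome 9.

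H3K27me3 peaks found in 1 replicate alone behaved differently in the 2 libraries, on both arms. Of the unshared peaks of replicate 1, 78 of 265 on chromosome 8, or 29.4% (95% Wilson interval 24.3 to 35.2%), and 68 of 273 on chromosome 9, or 24.9% (20.2 to 30.4%), touched an H3K4me3 region. Of the unshared peaks of replicate 2, 4 of 158 did on chromosome 8, or 2.53% (0.989 to 6.33%), and 4 of 163 on chromosome 9, or 2.45% (0.958 to 6.14%). Over the genome the shares were 28.2% and 1.22%. The arms gave like values in each library, and the libraries differed by far more than the intervals.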

How the data were processed

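Peak lists of 4 libraries (2 for H3K4me3, 2 for H3K27me3) were used as deposited, and the input library was not analysed here. Per the submitters' processing notes the tools were MACS2, Bowtie2, fastp, SAMtools, Picard and deepTools. The sources used here give no versions, control, thresholds or genome build. The H3K4me3 lists are in a narrow format and the H3K27me3 lists in a broad one. In the deposited lists each peak has a score, a fold enrichment (a ratio to background), and −log10 p and −log10 q values, all by the authors. The fold was used only to rank peaks within 1 list and the score was not used. Read depth is unknown, so precision is given by the spread of 2 libraries and, for shares, by 95% Wilson intervals, which cover counting error only.

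Groups and replicate numbers came from the sample titles. Arms were compared within each library as log2 ratios, tested by exact sign-flip permutation over libraries, and marks by an exact permutation of 2 against 2 libraries. Coverage is the bases of the peaks of an arm over its length. Regions of a mark are bases covered in both replicates. A chromosome was taken to end with its outermost peak, which gave 372.8 Mb for the genome. Python 3.11.15, numpy 2.4.6, scipy 1.17.1 and matplotlib 3.10.9 were used, and the handling of intervals was tested on simulated data.

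The arms, measures and thresholds were chosen with earlier results of these data known. The comparisons by inner, middle and outer segment and with the arms lined up were added after the lists were seen. In each arm the text names the 5 longest H3K27me3 regions, the 3 widest H3K4me3 regions, the 3 longest stretches with both marks, the full 500 kb step highest and lowest in mean coverage for each mark, the longest gap between H3K4me3 regions and every dense stretch of at least 3 windows. Other features it singles out, such as joined regions and the longest gaps between H3K27me3 regions, were chosen after their values were seen. Alternatives were a −log10 q of at least 5, arms of equal length, clipped peaks, each replicate alone, a replicate block, joined regions, other windows and steps, and overlap of at least 50% of both intervals.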

Additional observations from a re-analysis of the deposited data

Results flagged for a closer look

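H3K27me3 coverage, compared between the outer and the inner segment of each arm, went opposite ways on the 2 arms in both libraries. On the chromosome 8 arm the outer segment was higher in replicate 1 and in replicate 2, with a mean log2 ratio of 1.87. On the chromosome 9 arm the outer segment was lower in both libraries, with a mean log2 ratio of -0.63. The difference between the arms was not tested.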

How the results depend on the processing

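Of 100 alternative values for 21 results, 10 had the other sign than the value reported, all of them in 5 results whose values follow. The alternatives for the comparison with the rest of the genome and for the segments were chosen after seeing the data. The ratios of density and coverage between the arms, of H3K4me3 width, and of the outer over the inner segment kept their direction in every alternative run, with smaller sizes at equal length where that was run (H3K4me3 density 0.25 for 0.42). The H3K27me3 width ratio (0.059) turned to -0.11 with a −log10 q of at least 5 and to -0.0036 without H3K27me3 replicate 1 (0.12 without replicate 2). The excess of bases in regions of 5 kb and over on chromosome 9 (5.72 percentage points) was 15.4 with that threshold, 4.39 at equal length, -2.51 with regions joined, and 1.42 to 3.17 leaving out a replicate. The excess of dense windows (4.69 points) was 0.117 with that threshold, 0.962 at equal length, 10.2 at 8% coverage, 6.82 in 200 kb windows, 0.334 in shifted windows, and 8.71 to 10.3 leaving out a replicate. The difference in H3K4me3 regions touching H3K27me3 (-0.60 points) was 0.377 with that threshold, 0.051 at 50% overlap and -2.72 to 0.411 leaving out a replicate. That in H3K27me3 bases in H3K4me3 (-0.18) was 0.316 with the threshold, 0.309 at equal length and -0.914 to 0.323 leaving out a replicate. Replicate sharing of H3K4me3 (-1.15) was -0.453 with the threshold and -0.83 at equal length, and that of H3K27me3 (-0.29) was 0.704 with the threshold and -2.42 at 50% overlap. The causes were not tested. Sharing cannot be computed without a replicate. With the replicate number as a block, the difference between marks in the coverage ratio was -0.023 (exact sign-flip permutation p = 0.5), as without the replicate block, and 2 pairs are too few to check the pairing. Depth is unknown and 2 libraries per mark cannot reach a small p, so neither differences nor their absence are shown by these tests.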
